A study of Mus musculus with 2 samples.

Results

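A group of 7 miRNA genes of newborn mouse skeletal muscle is described here. They are Mir99a, Mir99b and Mir100, which share one seed, Mir125a, Mir125b-1 and Mir125b-2, which share another, and Mirlet7e, a let-7 gene that lies between Mir99b and Mir125a. The 7 were chosen by name among the 1973 genes listed in each count table. Mirlet7e is not itself listed, and it is represented by the reads on the strand opposite the listed gene Gm25927, which overlaps it. Small RNA was sequenced from total RNA of whole skeletal muscle of 2 pups of 1 litter, strain B6NCrl, at postnatal day 0. Sex was not collected, and the labels name no treatment or engineered allele. The pups form 1 group, with replicate 1 from pup 1 and replicate 2 from pup 2, so no contrast between conditions exists and no p-value is given. With 2 libraries no exact permutation test could pass 0.05.

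The miR-99/100, let-7 and miR-125 genes sit together in clusters of ancient origin. miR-125 is the vertebrate counterpart of lin-4 of nematodes, which like let-7 was found as a regulator of developmental timing. miR-99 and miR-100 are known as repressors of Mtor and of Igf1r, genes of the growth factor and insulin-like pathway. miR-125b is known in muscle as a repressor of Igf2 that holds back myoblast differentiation, and let-7 miRNAs accumulate as cells leave the dividing state. In vertebrates miR-125 and let-7 both repress Lin28a, whose protein in turn blocks let-7 maturation.

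A miRNA recognises its targets mainly through its seed, bases 2 to 8 from the 5′ end, so genes are grouped here by the seed of their mature sequence. All 7 genes were matched by symbol to RefSeq miRNA records on build GRCm38.p6, which gave 6 distinct sequences from the 5′ arm and only 3 distinct seeds. The 5′ arm sequences are shown with the seed in capitals.
miR-99a-5p: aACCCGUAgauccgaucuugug
miR-100-5p: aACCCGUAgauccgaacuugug
miR-99b-5p: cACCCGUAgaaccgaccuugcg
miR-125a-5p: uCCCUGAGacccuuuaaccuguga
miR-125b-5p: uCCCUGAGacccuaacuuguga
let-7e-5p: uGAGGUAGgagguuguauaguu
Positions are counted from 1 at the 5′ end of the first-named sequence. miR-99a-5p and miR-100-5p differ at a single base, U16A, outside the seed. miR-99a-5p and miR-99b-5p differ by 4 substitutions, A1C, U11A, U16C and U21C, and again none lies in the seed. miR-125a-5p has 24 bases against 22 in miR-125b-5p, and the first 13 bases of both are the longest run they share. miR-125b-5p is one sequence encoded by both Mir125b-1 and Mir125b-2, while each of the other 5′ arm sequences of the 7 genes was found in 1 gene of the RefSeq table.

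The 3′ arms tell the Mir125b copies apart, which is why they are shown, again with bases 2 to 8 in capitals.
miR-125b-1-3p: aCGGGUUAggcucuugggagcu
miR-125b-2-3p: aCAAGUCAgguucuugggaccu
These 2 sequences differ by 5 substitutions, G3A, G4A, U7C, C11U and G20C. Across the 7 genes the 3′ arms had 6 distinct seeds among 7 sequences, and only miR-99a-3p and miR-99b-3p shared theirs. The deposited tables count reads per gene, so the arms of a gene were not separated.

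The RefSeq records used here held hairpins for 5 of the 7 genes. Those of Mir99a and Mir100 are shown as the pair whose 5′ arms differ at a single base, with both mature arms in capitals.
Mir99a: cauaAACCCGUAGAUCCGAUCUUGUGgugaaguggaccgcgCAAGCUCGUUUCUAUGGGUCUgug
Mir100: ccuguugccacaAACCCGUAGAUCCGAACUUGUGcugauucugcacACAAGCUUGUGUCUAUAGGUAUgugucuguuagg
Over the whole hairpin these 2 were 63.4% identical in a global alignment, against 95.5% over the 5′ arm.

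The 7 genes form parts of 3 clusters with the same order of genes, a miR-99/100 gene first, a let-7 gene next and a miR-125 gene last, all on the plus strand (mm10, GENCODE M21). In the tables the genes carry Ensembl identifiers, among them ENSMUSG00000065530 for Mir99a, ENSMUSG00000065396 for Mir99b and ENSMUSG00000092799 for Gm25927. On chromosome 16, Mir99a (77598936 to 77599000) is followed by Mirlet7c-1 after 656 bases and by Mir125b-2 (77646273 to 77646343) after a further 46522 bases. All 3 lie in introns of the non-coding gene Mir99ahg, and Mir125b-2 also touches an exon of C130023A14Rik. On chromosome 9, Mir100 (41531425 to 41531504), Mirlet7a-2 and Mir125b-1 (41581926 to 41582002) span 50578 bases in introns of the non-coding gene 3110039I08Rik. Mir100 also overlaps an exon of Gm48742 on the other strand, and Mir125b-1 an exon of Gm28119. The chromosome 17 cluster is compact, with Mir99b (17830188 to 17830257), Mirlet7e (17830352 to 17830444) and Mir125a (17830812 to 17830879) inside 692 bases. It lies within Spaca6, a gene for a sperm protein needed for fusion with the egg, where Mir99b and Mirlet7e are intronic and Mir125a overlaps an exon. Gm25927 covers 17830343 to 17830459 on the minus strand and so contains the whole Mirlet7e hairpin.

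Levels are given as CPM, a gene's counts per 1000000 own-strand counts of all listed genes in the library. The 2 libraries held 3754895 and 5133949 such counts, and a gene at 0 counts could have held up to 0.799 CPM in replicate 1 and 0.584 CPM in replicate 2. Of the listed marker genes of skeletal muscle, 8 of 9 were in the tables, and 0 of the 8 were at 0. They held 8.13% and 8.94% of counts, and 7 reached 10 counts in each library. Nearly all of this was Mir206, at 79447 and 87198 CPM. Mir133b had 681 and 865 CPM, Mir499 573 and 626, Mir208b 560 and 567, and Mir486 61.5 and 80.1. Mir1a-1 had 6.39 and 8.96 CPM, Mir133a-1 5.33 and 6.23, and Mir133a-2 1.07 and 1.17. Reads that map to several places are outside all of these values. How far that lowered any of them was not tested. Genes of epithelium and skin held 0.569% in replicate 1 and 0.0230% in replicate 2, and the cartilage genes Mir140 and Mir455 held 0.792% and 0.195%. Endothelial, smooth muscle, blood and nerve lists differed by less than 1.5-fold between the libraries, and 4 of 10 listed nerve genes were at 0 in both. In bulk tissue, fewer cells of a type and less RNA per cell cannot be told apart.

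Together the 7 genes held 205457 counts in replicate 1 and 239571 in replicate 2. Their share was 5.47% in the first library, with an exact Clopper-Pearson 95% interval from 5.45 to 5.49, and 4.67% in the second, with an interval from 4.65 to 4.68. The mean share was 5.07% ± 0.569 (SD, n = 2). Each interval covers counting error within its own library only, and not the spread between pups. The counts are of reads and not of labelled molecules, so repeated reads of 1 molecule could not be told apart. The 3 genes with the miR-99/100 seed made up most of this, with 4.66% ± 0.530 of counts. The 3 miR-125 genes held 0.206% ± 0.0226 and Mirlet7e 0.199% ± 0.0173. The counts of Mirlet7e are on the opposite strand of a listed gene and are not part of the own-strand total, so its values and the sum of the 7 are ratios to that total.

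Mir99a was by far the most abundant of the 7. It had 148894 counts or 39653 CPM in replicate 1 and 170649 counts or 33239 CPM in replicate 2, a mean of 36446 ± 4535 CPM. It ranked 9th of 1973 listed genes by mean CPM, or 10th when counts of both strands were used for every gene. For the 312 genes that reached 10 counts in each library, Mirlet7e included, the median was 179 CPM, and Mir99a lay 204-fold above it. Mir99a alone made up 72.5% of the counts of the 7 genes in replicate 1 and 71.2% in replicate 2.

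Mir99b and Mir100 were the next 2 in order of CPM. Mir99b had 6139 CPM in replicate 1 and 5875 in replicate 2 (mean 6007 ± 187), and Mir100 had 4596 and 3784 (mean 4190 ± 574). The ranges of the 2 genes did not overlap, with Mir99b above Mir100 in both libraries. Of the counts of the 3 genes with the miR-99/100 seed, Mir99a held 78.7% and 77.5%, Mir99b 12.2% and 13.7%, and Mir100 9.12% and 8.82%. The RefSeq records used here gave this seed to 3 mouse miRNA genes, all of them among the 7. Most of the gene counts of this group thus fell on the chromosome 16 gene. They are singly mapped reads on either arm and do not give each gene's part of the seed itself.

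Mirlet7e followed in the order. The own strand of Gm25927 had 0 counts in both libraries, while its opposite strand, that of Mirlet7e, had 7916 counts in replicate 1 and 9568 in replicate 2. These corresponded to 2108 and 1864 CPM, with a mean of 1986 ± 173 CPM. The other 6 genes had 0 counts on their opposite strand in both libraries.

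The miR-125 genes were the lowest of the 7. Mir125a had 1413 CPM in replicate 1 and 1222 CPM in replicate 2, a mean of 1317 ± 135 CPM. Mir125b-2 had 477 and 374 CPM, a mean of 426 ± 72.9, from 1792 and 1921 counts. Mir125b-1 had 331 and 306 CPM, a mean of 318 ± 17.8, from 1242 and 1569 counts. The ranges of the 2 Mir125b genes did not overlap, Mir125b-2 being the higher in both libraries. Both encode the same 5′ arm sequence shown above, and reads that map to several places, 30.2% of all reads in replicate 1 and 29.9% in replicate 2, were listed apart from the gene counts. How far this lowered the values of the 2 genes was not tested, and their CPM is a value for reads assigned to one place. With the arms not separated, their order and ratio do not show which gene gave more of the shared miR-125b-5p.

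**Figure D1:**
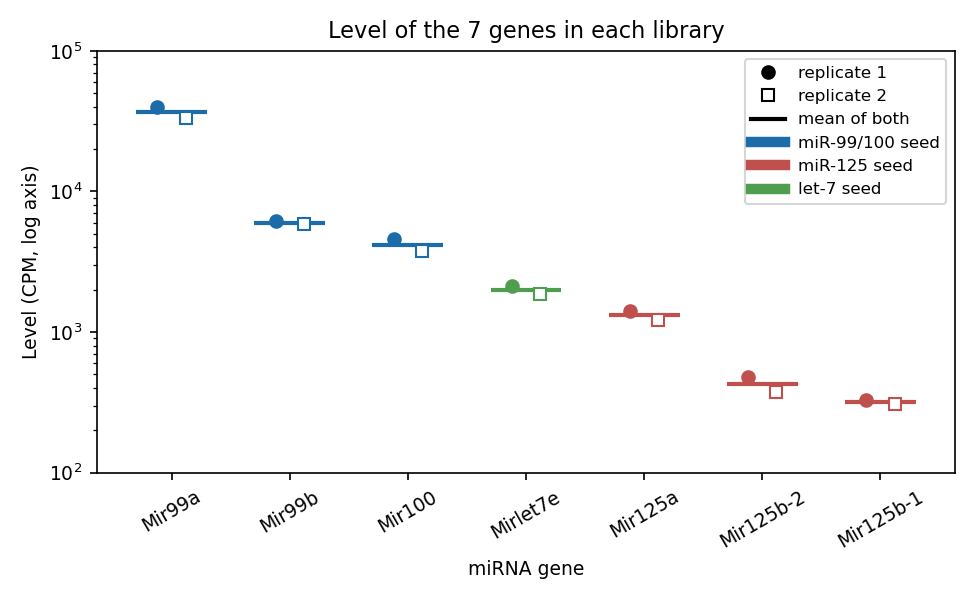
Level of each of the 7 miRNA genes in CPM on a log axis, with replicate 1 as filled circles, replicate 2 as open squares and their mean as a bar, coloured by seed. Mir99a stands at 36446 CPM on average, the other miR-99/100 genes between 4190 and 6007 CPM, and the Mir125b genes at 426 and 318 CPM.

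The order of the 7 genes by CPM was the same in both libraries. All 21 pairs kept their direction, and none of the 6 pairs of neighbours overlapped in range. The mean CPM of Mir99a was 6.07-fold that of Mir99b, the widest gap between neighbours. The narrowest by mean CPM was 1.34-fold, between Mir125b-2 and Mir125b-1, while in replicate 1 it was Mir99b over Mir100, also at 1.34-fold. A read of such a library spans a mature miRNA, so CPM was not divided by length. When CPM was divided by the annotated hairpin length, the order stayed as it was. On that scale Mir99a had 561 ± 69.8 CPM per base and Mir99b 85.8 ± 2.67. Mirlet7e, with 21.4 ± 1.86 CPM per base, then overlapped in range with Mir125a, with 19.4 ± 1.99.

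In each of the 3 clusters the first gene, of the miR-99/100 group, had the highest CPM. The contrast was steepest on chromosome 16, where Mir99a exceeded Mir125b-2 by 83.1-fold in counts of replicate 1 (95% interval 79.3 to 87.1) and by 88.8-fold in replicate 2 (84.9 to 93.0). On chromosome 9 Mir100 exceeded Mir125b-1 by 13.9-fold (13.1 to 14.7) and 12.4-fold (11.8 to 13.0). On chromosome 17 Mir99b exceeded Mir125a by 4.34-fold (4.22 to 4.48) and 4.81-fold (4.68 to 4.94). Per hairpin base these genes kept the same order. The miR-125b-5p sequence is encoded by both Mir125b genes, and reads that map to several places are outside these ratios. Whether and how far this widened the contrasts on chromosomes 16 and 9 was not tested.

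The let-7 genes of the clusters differed in their place in this order. On chromosome 17 Mirlet7e had more counts than Mir125a, 1.49-fold in replicate 1 and 1.53-fold in replicate 2. On chromosome 16 Mirlet7c-1 had 110 and 80.1 CPM, below Mir125b-2 in both libraries. On chromosome 9 Mirlet7a-2 had 125 and 89.0 CPM, below Mir125b-1 in both. The mature let-7c-5p of Mirlet7c-1 is also encoded by Mirlet7c-2, and the let-7a-5p sequence of Mirlet7a-1 is also present in the Mirlet7a-2 hairpin. The let-7e-5p sequence was found in 1 gene only, and it is set beside let-7c-5p because 2 substitutions separate them, G9U and A19G counted on let-7e-5p.
let-7c-5p: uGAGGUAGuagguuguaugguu
In the RefSeq records used here, 4 genes of these clusters had a 5′ arm sequence found at 2 loci, and their means ran from 95.02 to 426 CPM. The 5 whose 5′ arm sequence was found at 1 locus had means from 1317 to 36446 CPM. The whole genome was not searched for further matches. The part of multiple mapping in this separation was not tested.

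**Figure D2:**
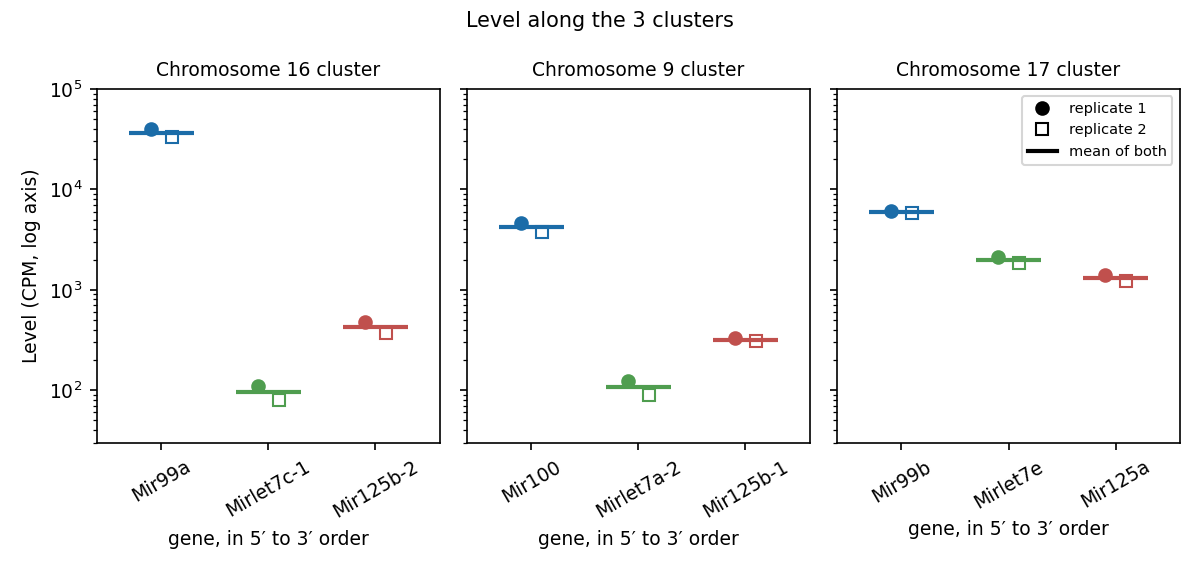
Level in CPM on a log axis of the 3 genes of each cluster in genomic order, with replicate 1 as filled circles, replicate 2 as open squares and the mean as a bar. The first gene is the highest in each cluster, and the let-7 gene is the lowest on chromosomes 16 (95.02 CPM) and 9 (107 CPM) but not on chromosome 17 (1986 CPM).

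Most of the gene counts of genes with the miR-125 seed fell on a gene outside the 7. The RefSeq records used here gave the seed CCCUGAG to 6 listed genes, among them Mir351, an X-linked gene of the cluster with Mir322 and Mir503.
miR-351-5p: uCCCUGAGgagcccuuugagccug
Over its whole length miR-351-5p was 74.1% identical to miR-125a-5p and 63.0% identical to miR-125b-5p in global alignments. By the same measure miR-125a-5p and miR-125b-5p were 87.5% identical to each other. Mir351 had 14728 CPM in replicate 1 and 12052 CPM in replicate 2, a mean of 13390 ± 1892 CPM. It held 86.9% and 86.4% of the counts of genes with this seed. The 3 miR-125 genes held 13.1% (12.8 to 13.4) and 13.6% (13.4 to 13.9), of which Mir125a held 8.34% and 8.76%. Mir6367 and Mir6394, the other 2 genes with this seed, had 0 counts in both libraries. Reads of miR-125b-5p that map to both of its loci are outside these shares. The arms of a gene were not separated, so all these shares are of singly mapped reads on either arm. They do not give each gene's part of the CCCUGAG seed itself.

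Mirlet7e held a small part of the gene counts of genes with the let-7 seed GAGGUAG. The RefSeq records used here gave this seed to 14 genes, 1 of them, Mirlet7a-2, through its hairpin alone. The tables represented 13 of them, and Mirlet7f-1 was not analysed here. Mirlet7e held 2.37% of their counts in replicate 1 and 2.35% in replicate 2. Mirlet7i held 38.4% in both libraries and Mirlet7g 35.9% in both. Mirlet7e had a mean CPM below those of Mirlet7d (11273), Mirlet7b (3570) and Mir98 (3123). It was above that of Mirlet7f-2 (1335). The let-7f-5p, let-7a-5p and let-7c-5p sequences are each encoded at 2 loci, so these shares and this order, too, hold for singly mapped reads only.

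**Figure D3:**
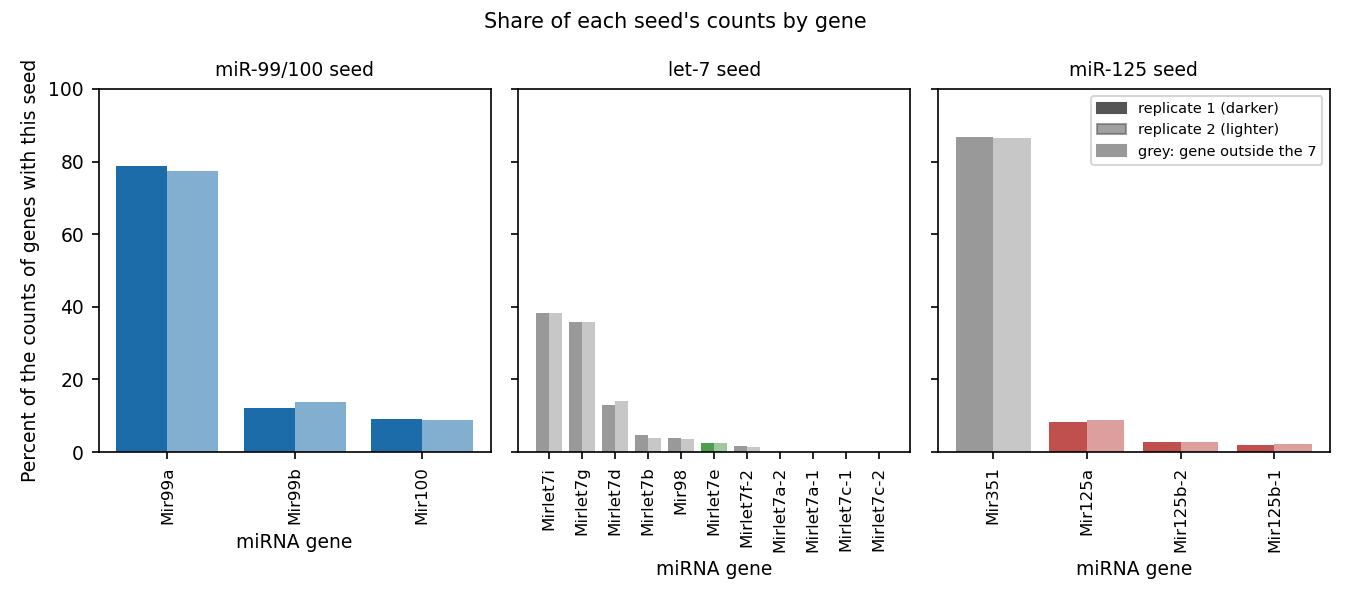
Percent of the counts of the listed genes with a given seed that fell on each gene with at least 1 count, with replicate 1 as darker and replicate 2 as lighter bars, and genes outside the 7 in grey. Of the counts of genes with each seed, Mir99a holds 78.7% and 77.5% for miR-99/100, and Mir351 86.9% and 86.4% for miR-125. Mirlet7e holds 2.37% and 2.35% for let-7.

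The 7 genes were compared between the 2 pups beside all genes tested. Ratios between libraries are log2 of replicate 2 over replicate 1 after TMM scaling, and they compare 2 libraries with no replicate check. Of the 7 genes, 0 differed by at least 2-fold, against 31 of 373 genes tested over the whole table (8.31%). Of these 31, 24 had the higher value in pup 1 (6.43% of those tested) and 7 in pup 2 (1.88%). With a share this low, 0 of 7 does not set the 7 genes apart from the rest. The median ratio of the 7 was -0.08 and their range -0.22 to 0.07, while the median of all genes tested was 0.01. Among 145 genes with a mean of at least 1000 counts, 4 differed by 2-fold, and the median absolute ratio was 0.22. This set includes members of the 7, and its median is the value of Mir125b-2, the largest absolute ratio among them. The match is therefore not an independent comparison.

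Mir99a was lower in replicate 2 by a log2 ratio of -0.12 (95% counting interval -0.13 to -0.11), and Mir100 by -0.15 (-0.18 to -0.12). Mir99b had a ratio of 0.07 (0.04 to 0.09). Mir125b-2 had the largest ratio in size, -0.22 (-0.31 to -0.13), and Mir125b-1 had 0.02 (-0.09 to 0.13), which includes no difference. Mir125a had -0.08 (-0.13 to -0.03) and Mirlet7e -0.05 (-0.09 to -0.003). With TMM scaling 5 of the 7 had a lower value in replicate 2, and with total-count scaling, which shifts each ratio by -0.13 and moves the median of all genes to -0.13, all 7 had. Relative to that median, Mir99b and Mir125b-1 remained above and the other 5 below.

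**Figure D4:**
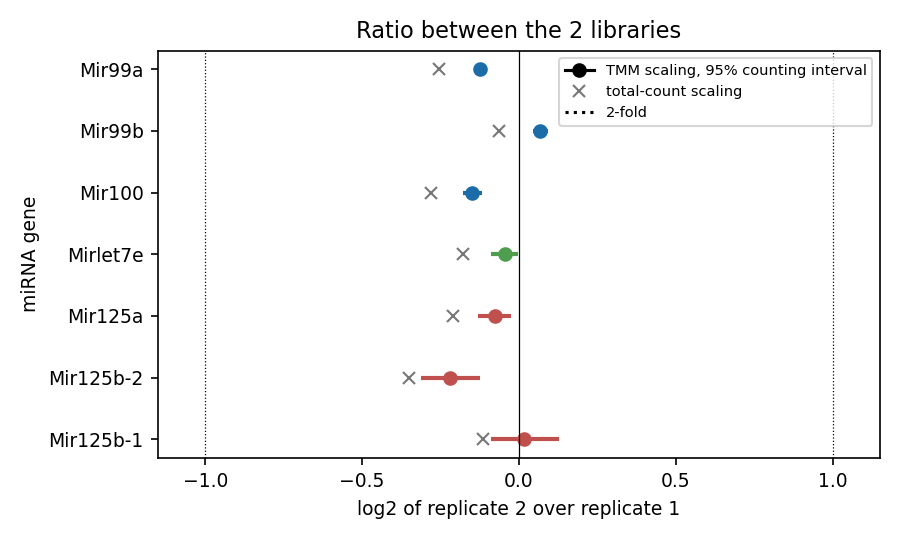
Log2 ratio of replicate 2 over replicate 1 for each gene, with circles for TMM scaling, lines for the 95% counting interval and crosses for total-count scaling, and dotted lines at 2-fold. The 7 ratios under TMM scaling run from -0.22 to 0.07, and total-count scaling places all 7 below 0.

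Ratios of 2 genes inside one library need no scaling between libraries, and they showed which of the 7 genes shifted against each other. Mir99b over Mir100 was 1.34 in replicate 1 (95% interval 1.31 to 1.36) and 1.55 in replicate 2 (1.52 to 1.58). Mir99a over Mir100, the pair with a single-base difference in the 5′ arm, was 8.63 (8.49 to 8.77) and 8.78 (8.65 to 8.91), and these intervals overlapped. Mirlet7e over Mir125a was 1.49 (1.44 to 1.54) and 1.53 (1.48 to 1.57), which overlapped as well. Mir125b-2 over Mir125b-1 was 1.44 (1.34 to 1.55) and 1.22 (1.14 to 1.31), without overlap. Over all 21 pairs, the widest change was 1.22-fold, for Mir99b over Mir125b-2. The intervals of 10 pairs did not overlap between the libraries. They cover counting error only, and a difference between pups cannot be told apart from one between library preparations. Genes of epithelium and skin moved far more between the same libraries, 24.8-fold higher in share in replicate 1, and the cartilage list 4.06-fold, of which Mir140 was 6.77-fold higher in CPM and Mir455 1.40-fold. The part of such differences in tissue make-up in the ratios of the 7 genes was not tested.

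**Figure D5:**
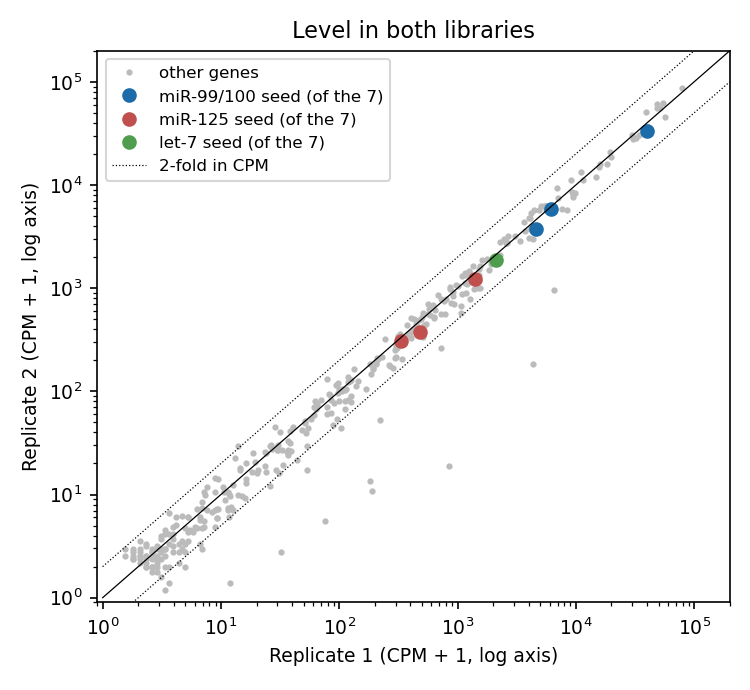
CPM plus 1 of each gene that reached 10 counts over both libraries, replicate 1 on the horizontal and replicate 2 on the vertical log axis, with the 7 genes in colour, the line of equality and dotted lines at 2-fold in CPM. The 7 genes lie between the dotted lines over a range from 318 to 36446 mean CPM.

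Genes outside the 7 with the most similar levels were found by the distance in log2(CPM + 1) over the 2 libraries. Nearest to Mir99a were Mir126a, an endothelial miRNA gene, at a distance of 0.14 with 38672 ± 2989 CPM, and Mirlet7i at 0.25. Mir100 was nearest to Mir30a (0.07) and Mir652 (0.15), and Mir99b to Mir214 (0.12) and Mir139 (0.15). Mirlet7e was nearest to Mir10a (0.08) and Mir423 (0.10), and Mir125a to Mirlet7f-2 (0.12) and Mir324 (0.15). With 2 libraries this measure reflects level much more than any pattern across samples.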

How the data were processed

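Whole-number read counts per miRNA gene were deposited for each library, made on build mm10 with annotation M4, per the deposited file descriptions. Which aligner and counter made them is not given in the sources used here. The 3 count columns carry no header. In every gene row the first was the sum of the rest, and the second was read as own-strand counts, the third as opposite-strand counts, from layout and totals. The 4 leading lines (multimapping, unmapped, no gene on the own strand, 7.56% and 8.44% of reads for the last, and ambiguous) stayed out of totals. Names and coordinates came from GENCODE M21.

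CPM used the own-strand total, and Mirlet7e used the opposite-strand counts of Gm25927. Ratios used edgeR 4.0.16 TMM factors (1.05 and 0.955, R 4.3.3) with 0.5 added to each count, over genes with at least 10 counts in total. Intervals are exact (scipy 1.17.1). Ratio code was checked on simulated counts. Members and lists were chosen with earlier results of these data known. Beside the 7 members, the genes named were the cluster let-7 genes, up to 6 genes per shared seed and the 2 nearest genes of each member with at least 1000 CPM. Mirlet7a-1, Mir6367, Mir6394 and Mirlet7f-1 were named after their values were seen. Alternatives were both strands, other denominators, filters and pseudocounts, total-count scaling, size factors from DESeq2 1.42.0, and either pup's library by itself.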

Additional observations from a re-analysis of the deposited data

Results flagged for a closer look

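Reads that mapped to several places averaged 30.0% of all reads, 2156563 in replicate 1 and 2971792 in replicate 2, and lie outside every gene value given here. They were picked out because they form a large signal outside the gene counts. Which miRNAs they came from was not tested.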

How the results depend on the processing

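With all reads as the denominator, shares fell because the denominator grew: the 7 genes held 2.64%, the miR-99/100 genes 2.43%, the miR-125 genes 0.107%, Mirlet7e 0.104%, and the members on chromosomes 16, 9 and 17 held 1.92%, 0.235% and 0.485%. With both strands counted, or added to the denominator alone, Mirlet7e held 0.177% and the chromosome 17 members 0.832%, and the other shares moved by less than 1 SD. Leaving out Mir125b-1 and Mir125b-2 gave 4.99% for the rest. Either library alone gave 4.67% to 5.47% for all 7 genes, a range that 2 libraries cannot place beyond their own SD. Total-count scaling gave a median log2 ratio of -0.21 for the 7 genes, and DESeq2 size factors, a pseudocount of 1 and both strands gave -0.08. In each of these, 0 of the 7 differed by 2-fold. The 31 genes that differed by 2-fold over the whole table became 215 with at least 1 count in total and 10 with at least 50 counts in each library, since the filter changes how many genes with few counts are included. No paired analysis was possible because the labels define 1 group. Depth limits the Mir125b genes most, which had 1242 to 1921 counts per library.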
